A study of Arabidopsis thaliana with 64 samples.

Results

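Uninduced GR-WRI3 seedlings of Arabidopsis thaliana were compared with seedlings that carried the same kind of construct for another transcription factor. The 8 mock libraries of GR-WRI3 were set against the 24 mock libraries of GR-CHA19, GR-ENAP1 and GR-LBD16, out of 64 libraries in all, and they were chosen by their construct and treatment labels alone. Every line was Columbia-0 transformed with the transcription factor fused to the hormone-binding part of the glucocorticoid receptor (GR) under the constitutive p35S promoter. Whole seedlings spent 5 days in darkness before 24 h on mock medium or on 10 µM dexamethasone (Dex), and each library came from many pooled seedlings. The 2 biological replicates of a line and treatment are called plates here, although the authors do not state that each had its own plate. Each construct was represented by 4 insertion lines with 2 mock and 2 Dex plates per line. The GR-WRI3 lines were 8, 10, 17 and 21. The other lines were 5, 7, 8 and 9 of GR-CHA19, 1, 2, 4 and 5 of GR-ENAP1, and 3, 8, 11 and 12 of GR-LBD16.

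No line lacked a GR fusion, so the 12 other lines were a mixed comparison group and not a wild type. The file headers named 2 sequencing runs, each of which held every library. Beyond those runs, neither the labels nor the file headers named a batch of sowing, extraction or sequencing. The effect of WRI3 therefore cannot be told apart from anything that was done construct by construct. Because plates of a line shared an insertion, the 2 plates were summed and lines were the replicates: 4 GR-WRI3 lines against 12.

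WRI3, listed in RefSeq as ADAP, belongs to the WRINKLED family of AP2-type transcription factors. In Arabidopsis, WRI1 switches on plastid glycolysis and fatty acid synthesis in the maturing seed, and WRI3 and WRI4 are known for supplying fatty acids for cutin in floral organs. A GR fusion is held in the cytosol by the chaperone HSP90 until Dex releases it, so mock libraries show the construct's transcript before induction, together with whatever else separates the lines.

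WRI3 transcript was far more abundant in the GR-WRI3 lines than in the others without Dex, and it was the sole gene that passed the test against the 12 other lines. WRI3 (AT1G16060, chr1:5508311-5511736, plus strand, TAIR10 coordinates) stood at 113.7 and 123.4 CPM (reads per 1000000 reads of the library, after scaling) in the plates of line 8. It stood at 48.0 and 35.3 CPM in line 10. It reached 219 and 162 CPM in line 17, and 124.3 and 133.1 CPM in line 21. All 8 libraries lay far above the other 24, which ranged from 0.296 to 2.45 CPM with a median of 1.18 CPM. Those CPM rested on 87 to 991 reads per GR-WRI3 library and on 2 to 16 reads per other library.

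**Figure D1:**
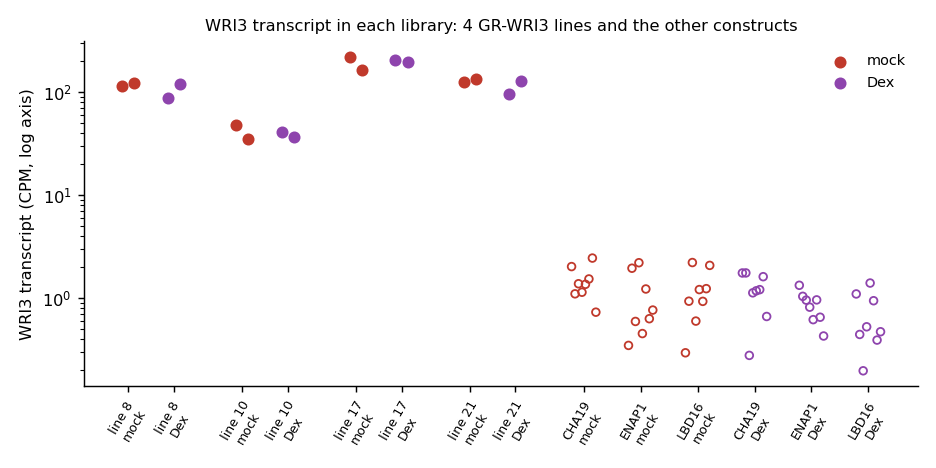
WRI3 transcript in each library in CPM on a log axis, with filled points for the GR-WRI3 lines and open points for the other constructs, mock in red and Dex in purple. The lowest GR-WRI3 mock library, at 35.3 CPM, is above the highest other mock library, at 2.45 CPM.

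On line sums the log2 difference was 6.64 (SE 0.28, 95% interval 6.06 to 7.23, n = 4 and 12 lines, edgeR adjusted p = 3.59e-10). Set against each construct, WRI3 was 6.30 higher on the log2 scale than in GR-CHA19, 6.97 higher than in GR-ENAP1 and 6.73 higher than in GR-LBD16, with edgeR adjusted p of at most 1.5e-06. The difference passed the test against each of the 3 constructs. Reads of the transgene and of the endogenous gene fell in the same count and were not separated.

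The 4 GR-WRI3 lines did not carry the same amount of WRI3. Line sums were 44.0 CPM in line 10, 119 CPM in line 8, 129 CPM in line 21 and 187 CPM in line 17. The spread among lines exceeded the spread between plates (edgeR F-test, adjusted p = 3.65e-05). Lines 8 and 21 were neighbours, whose plates spanned 113.7 to 123.4 and 124.3 to 133.1 CPM in mock without overlap. In Dex their plates overlapped, at 87.3 to 120 and 95.5 to 129 CPM. Line 8 was not tested against line 21 on its own. Dex left the order of the lines at 39.0, 101, 110 and 200 CPM for lines 10, 8, 21 and 17. The Dex response of WRI3 within the GR-WRI3 lines was -0.15 on the log2 scale (SE 0.19, edgeR adjusted p = 0.845).

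The library protocol did not mark strand, and WRI3 overlaps TLP8, a tubby-like gene on the opposite strand, by 1436 bases. TLP8 stood at 0.192 to 1.28 CPM in the GR-WRI3 lines and at 0 to 1.88 CPM in the 12 others. Its level in the GR-WRI3 lines lay within the range of the other lines (log2 difference -0.08, 95% interval -1.22 to 1.05).

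The other WRINKLED genes did not pass the test. WRI4 stood at 156, 150.2, 189 and 190.1 CPM in lines 8, 10, 17 and 21, against 56.5 to 204 CPM in the other 12 (log2 difference 0.36, 95% interval -0.19 to 0.92). WRI2 differed by 0.05 (95% interval -0.24 to 0.34) and WRI1 by -0.01 (95% interval -0.48 to 0.45). Those intervals do not show that the levels were equal.

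Across the transcriptome, 1 of 19303 genes tested passed an adjusted p of 0.05 in mock, or 0.00518%, and it was WRI3. No gene was called lower. At an unadjusted p under 0.05 there were 2124 genes, 395 higher and 1729 lower, or 11% of those tested. DESeq2 and limma voom also called WRI3 alone, with 3125 and 2583 genes at an unadjusted p under 0.05. The same comparison made for each other construct in turn called 1 gene for GR-CHA19 (5121, or 26.5%, at an unadjusted p under 0.05), 0 for GR-ENAP1 (1437, or 7.44%) and 148 for GR-LBD16 (0.767%, with 7882 or 40.8% at that p).

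Which lines served as the comparison changed that count by orders of magnitude. Against the 4 GR-CHA19 lines 2 genes passed (0.0104%): WRI3 was higher, and CHA19 itself, a chromatin remodelling ATPase, was lower. CHA19 stood at 57.4 to 66.0 CPM in the GR-WRI3 lines and at 117 to 230.1 CPM in the GR-CHA19 lines, which carry it as their transgene (log2 difference -1.29, edgeR adjusted p = 0.0158). At an unadjusted p under 0.05, 129 genes (0.668%) differed from GR-CHA19. Against GR-ENAP1 1010 genes were higher (5.23%) and 1367 lower (7.08%), together 12.3%, with 6891 (35.7%) at an unadjusted p under 0.05. Against GR-LBD16 3704 were higher (19.2%) and 4250 lower (22%), together 41.2%, with 10022 (51.9%) at an unadjusted p under 0.05. The 3 contrasts share the GR-WRI3 libraries, and they come from a single fit with a mean for each construct.

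**Figure D2:**
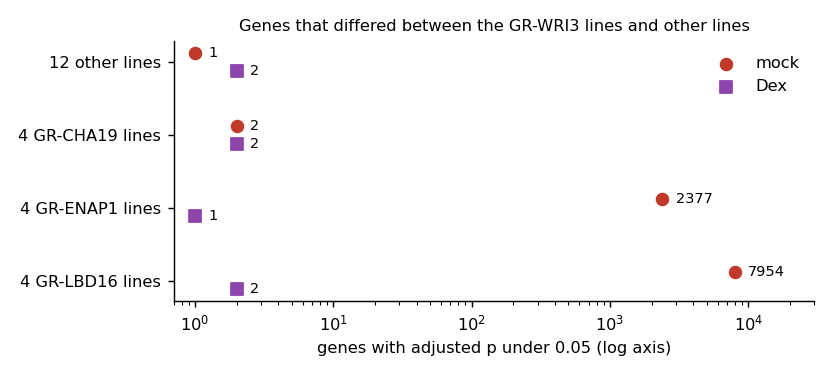
Number of genes with an edgeR adjusted p under 0.05 between the GR-WRI3 lines and the lines named on the left, on a log axis, for mock (circles) and Dex (squares). In mock the count runs from 1 and 2 genes against all others and GR-CHA19 to 2377 and 7954 against GR-ENAP1 and GR-LBD16, and in Dex it is 1 or 2 throughout.

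On the first principal component, which held 66.1% of the variance, GR-WRI3 lines 17 and 21 lay among the GR-CHA19 lines. Lines 17, 21, 10 and 8 stood at -59.6, -53.8, -34.9 and -14.5, the last nearest to a GR-ENAP1 line, and GR-CHA19 lines from -59.2 to -41.7. GR-ENAP1 lines ran from -10.8 to 111 and GR-LBD16 lines from 25.4 to 110. Plates of 1 line differed most in GR-LBD16 line 3 and GR-ENAP1 line 1, where the chi-square per gene between mock plates was 171 and 105, against 2.2 to 4.79 in the GR-WRI3 lines. Without these 2 lines WRI3 was again the sole gene called. Without the 4 GR-CHA19 lines 5737 of 19131 genes passed, 2603 higher and 3134 lower (30%).

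In the Dex plates of the same lines the gaps to GR-ENAP1 and GR-LBD16 were 1 and 2 genes (0.00516% and 0.0103%), with 1633 (8.43%) and 1387 (7.16%) at an unadjusted p under 0.05. The test of whether a gap differed between mock and Dex passed for 0 genes against GR-ENAP1 and 0 against GR-LBD16, with 834 (4.12%) and 1744 (8.61%) of 20259 at an unadjusted p under 0.05. The mock and Dex gaps were not shown to differ for any single gene. Some Dex plates of 1 line also lay far apart. The chi-square per gene was 104 in GR-CHA19 line 7, 42.8 in GR-WRI3 line 8 and 29 in GR-ENAP1 line 2. Without the first Dex replicate of GR-CHA19 line 7, the comparison with all other Dex lines again called 2 genes. The Dex gaps to single constructs were not refitted without such plates.

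Few genes separated the 4 GR-WRI3 lines from all 12 others by level. In 8 of 19303 genes (0.0414%) every GR-WRI3 line was above every other line, and in 22 (0.114%) every line was below. SCO2, required for chloroplast development in the cotyledons, was in the second group and is named here after its values were seen. Its line sums were 7.94, 8.73, 8.37 and 8.16 CPM in lines 8, 10, 17 and 21. The other lines ranged from 9.93 to 14.1 CPM (log2 difference -0.53, 95% interval -0.75 to -0.31, edgeR adjusted p = 0.375), so SCO2 did not pass the test over all genes, although it passed in some alternative fits.

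The genes that WRI1 is known to activate were examined first among the gene lists. Plastid fatty acid synthesis starts with acetyl-CoA carboxylase, whose biotin-carrying subunits are BCCP1 and BCCP2 and whose biotin carboxylase is CAC2. The chain is then built on acyl carrier proteins such as ACP1. Pyruvate kinase (PKP-ALPHA, PKP-BETA1) and plastid pyruvate dehydrogenase (PDH-E1 BETA 2) supply the acetyl-CoA. WRI1 binds letters known as the AW-box, CNTNGNNNNNNNCG. These letters were searched on both strands from 250 bases before to 50 bases after each annotated start. They occurred in 11.9% of 27431 protein-coding genes, in 6 of 26 fatty acid synthesis genes (23.1%) and in 6 of 14 genes of pyruvate and acetyl-CoA supply (42.9%). The following windows are from the 4 matched genes that were higher in the GR-WRI3 lines on Dex plates at an unadjusted p under 0.05. They were thus chosen by their Dex values and show no link between the letters and Dex. The other matched genes that were tested, HAD1 and DLD among them, did not reach that p. Windows run 5′ to 3′ on the strand of the match, with the letters that match in capitals. They were read from RefSeq's TAIR10.1 sequence, and a match is no evidence of binding.
PDH-E1 BETA 2, chr1:10586662-10586691, plus strand: catgtttaCATTGTTTTCATCGaactcatg
ACP1, chr3:1392928-1392957, minus strand: ttcacgctCTTTGTACACTCCGccctctct
CAC3, chr2:15917026-15917055, plus strand: aggagtcaCGTGGGCACGTGCGagagagca
PDH-E1 ALPHA, chr1:49365-49394, minus strand: gaaaaaaaCATTGGTGTTAACGaagaaggg
The match is centred 3 bases after the annotated start in PDH-E1 BETA 2, 11 after it in ACP1, 8 after it in CAC3 and 75 before it in PDH-E1 ALPHA. BCCP2, CAC2, ACP2, ACP3, PKP-BETA1 and LPD1, list members also higher in Dex at that p, had no match in their windows.

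No gene of these lists passed the test in mock. Of 25 fatty acid synthesis genes tested, 12 were on the higher side, with a median log2 difference of -0.00 against -0.03 for all 19303 genes, 47.1% of which were on the higher side. Of 14 pyruvate and acetyl-CoA genes, 6 were on the higher side with a median of -0.05. At an unadjusted p under 0.05 there were 0 higher genes in either list and 1 lower gene, ACP4, an acyl carrier protein (log2 difference -0.54, 95% interval -1.05 to -0.03, edgeR adjusted p = 0.375). Among the other members with the lowest p-values, MCAMT (-0.47), the enoyl reductase MOD1 (-0.35) and BCCP1 (-0.35) lay on the lower side, and PKP-ALPHA (0.35) and PKP-BETA1 (0.30) on the higher side.

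The lists were also read against each construct. Against GR-CHA19 22 of the 25 fatty acid genes and 14 of the 14 pyruvate genes were on the higher side, where 49.6% of all genes were, with medians of 0.13 and 0.12, and 0 of them passed. Against GR-ENAP1, where 5.23% of all genes were called higher and 7.08% lower, 0 fatty acid genes were called higher and 6 lower, and 0 pyruvate genes higher and 1 lower. Against GR-LBD16, where the shares of all genes were 19.2% and 22%, 2 fatty acid genes were called higher and 9 lower, and 2 pyruvate genes higher and 4 lower, the latter near the shares over all genes. Line medians of the fatty acid list spanned -0.33 to 0.17 among the GR-WRI3 lines, relative to the mean of the 12 others, and -0.25 to -0.07 among the GR-CHA19 lines, so the groups overlapped.

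Dex plates of the same lines gave another picture for a few of these genes. PDH-E1 BETA 2 (AT1G30120) stood in mock at 84.2 and 90.0 CPM in line 8, 71.9 and 78.8 in line 10, 92.5 and 81.0 in line 17, and 84.5 and 78.4 in line 21. The other 24 mock libraries ranged from 26.0 to 89.6 CPM with a median of 79.4, so the groups overlapped (log2 difference 0.12, 95% interval -0.13 to 0.36). In Dex it stood at 99.5 and 124 CPM in line 8, 101 and 95.2 in line 10, 141 and 125 in line 17, and 111 and 116 in line 21. All 8 were above the other 24 Dex libraries, which ranged from 57.1 to 88.0 CPM. With WRI3 it was the other gene of 19366 called in Dex (log2 difference 0.57, SE 0.09, edgeR adjusted p = 0.0351; 2 genes or 0.0103%, 673 or 3.48% at an unadjusted p under 0.05). That call was lost without line 8, 17 or 21, with edgeR adjusted p of 0.0852, 0.288 and 0.245, and with a mean fitted for each construct, at 0.0971. Its response to Dex differed between GR-WRI3 and the other lines by 0.43 on the log2 scale, which did not pass over all genes (edgeR adjusted p = 0.897).

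BCCP2 (AT5G15530) stood in mock at 26.7, 25.0, 12.4 and 15.7 CPM in lines 8, 10, 17 and 21, within the 12.2 to 29.6 CPM of the others (log2 difference 0.01, 95% interval -0.49 to 0.51). In Dex its line sums were 50.1, 37.1, 25.3 and 30.2 CPM, against 11.6 to 32.2 CPM, a log2 difference of 0.67 that did not pass over all genes (edgeR adjusted p = 0.949). ACP3, another acyl carrier protein, differed by -0.05 in mock and by 0.30 in Dex (edgeR adjusted p = 0.949 in Dex). In Dex 6 of the 25 fatty acid genes and 4 of the 14 pyruvate genes were on the higher side at an unadjusted p under 0.05, against 0 and 0 in mock. Over all genes 280 of 19366 were higher at that p in Dex and 395 of 19303 in mock. The mock and Dex comparisons use different plates of the same lines.

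**Figure D3:**
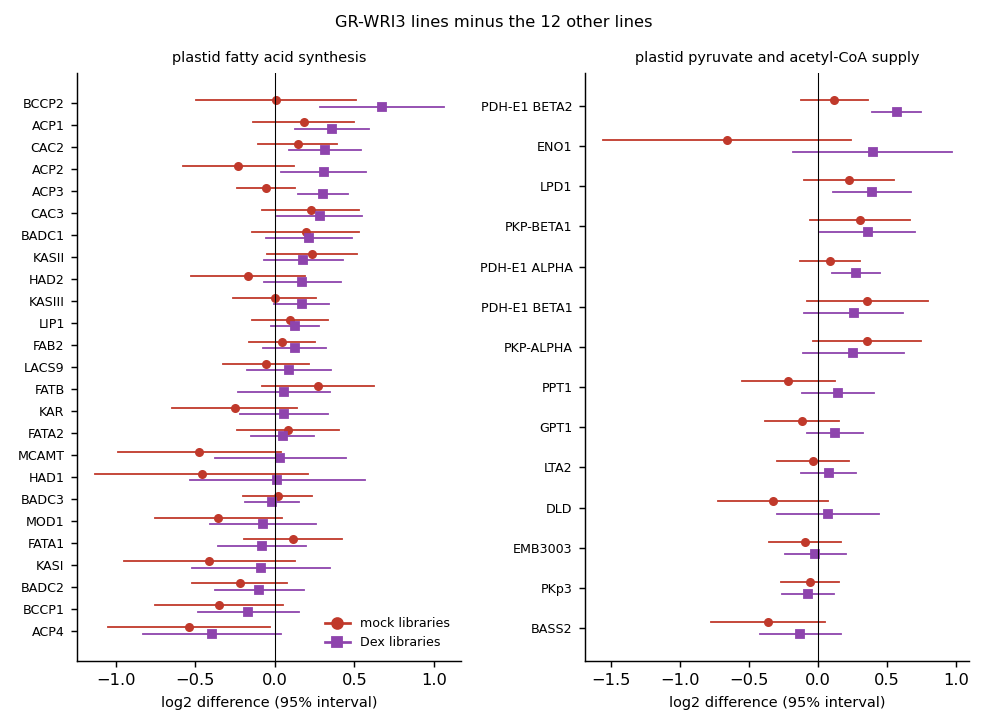
Log2 difference of the GR-WRI3 lines from the 12 other lines for each gene of plastid fatty acid synthesis (left) and pyruvate and acetyl-CoA supply (right), with 95% intervals, in mock (circles) and Dex (squares), ordered by the Dex value. The mock points lie on both sides of 0, and PDH-E1 BETA 2 at 0.57 in Dex is the sole point called.

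Surface lipid and storage lipid genes did not pass the test in mock either. Of 27 wax and cutin genes 13 were on the higher side (median -0.03), with 0 higher and 1 lower at an unadjusted p under 0.05. The lower gene was HTH, which is needed to keep floral organs separate (log2 difference -1.59, 95% interval -3.14 to -0.04). HTH stood at 27.6, 14.9, 10.0 and 12.6 CPM in lines 8, 10, 17 and 21, within the 9.02 to 173 CPM of the others. CER3, a wax alkane synthesis gene, differed by 0.26 and the cutin transporter ABCG11 by 0.19. Against GR-CHA19 25 of the 27 wax and cutin genes were on the higher side (median 0.14), where 49.6% of all genes were. None of the 27 passed there. Against GR-ENAP1 0 were called higher and 4 lower, beside 5.23% and 7.08% of all genes. Against GR-LBD16 6 were called higher and 9 lower, beside 19.2% and 22% of all genes. Of 12 storage lipid assembly genes 6 were on the higher side (median 0.03). FAD3, the endoplasmic reticulum linoleate desaturase, stood at 80.2, 78.0, 44.5 and 44.3 CPM in lines 8, 10, 17 and 21, and the lines differed (edgeR F-test, adjusted p = 1.27e-04).

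In the carbon starvation list GR-WRI3 and GR-CHA19 lay together apart from GR-ENAP1 and GR-LBD16. Of these genes, which a dark-kept plant turns on as sugar runs out, 19 of 19 members were on the higher side in GR-WRI3 (median 0.45) and 0 passed against the 12 other lines, with 0 at an unadjusted p under 0.05. Against GR-LBD16 19 of 19 were called higher and against GR-ENAP1 8, where 19.2% and 5.23% of all genes were, whereas against GR-CHA19 0 of 19 were on the higher side (median -0.09). Summed over the list, the GR-WRI3 lines held 25340 to 29750 CPM and the GR-CHA19 lines 27780 to 31560 CPM. The GR-ENAP1 lines held 8374 to 22260 CPM and the GR-LBD16 lines 9633 to 17380 CPM.

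LKR, the lysine-degrading enzyme of that list, stood at 2527, 2463, 2679 and 3038 CPM in lines 8, 10, 17 and 21, against 559 to 3099 CPM in the others (log2 difference 0.67, 95% interval -0.15 to 1.5). It was 1.49 higher than in GR-LBD16 (edgeR adjusted p = 0.00478), 1.11 higher than in GR-ENAP1 (edgeR adjusted p = 0.0297) and -0.09 apart from GR-CHA19. The abscisic acid and dehydration list was mixed, with 3 genes called higher and 2 lower of 12 against GR-ENAP1 and 6 and 4 against GR-LBD16, beside shares over all genes of 5.23% and 7.08%, and 19.2% and 22%. Its line medians overlapped, with GR-WRI3 line 8 at 0.003 and GR-ENAP1 line 5 at 0.353. NCED3, the rate-limiting step of abscisic acid synthesis, stood at 16.7, 20.9, 21.8 and 25.1 CPM in lines 8, 10, 17 and 21, against 4.66 to 25.1 CPM in the others. It was 1.57 higher than in GR-LBD16 (edgeR adjusted p = 0.00209).

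Markers of tissues that whole seedlings can hold in unequal amounts were read beside these gaps. Root markers had a median log2 difference of -1.5 over 12 genes, with 2 on the higher side and 4 lower at an unadjusted p under 0.05. Their summed level was 646 to 1350 CPM in the GR-WRI3 lines and 728 to 944 CPM in GR-CHA19, against 1027 to 3001 CPM in GR-ENAP1 and 1617 to 2277 CPM in GR-LBD16. Most of each sum was the single member PYK10. Its mock libraries held 453.5 to 1177 CPM in GR-WRI3, 538 to 812 in GR-CHA19, 743 to 3265 in GR-ENAP1 and 1306 to 2367 in GR-LBD16. Of the 14 listed markers, 7 were under 1 CPM in all GR-WRI3 lines. RHD6, which starts root hair formation, was at 0.187, 0, 0.192 and 0.253 CPM in lines 8, 10, 17 and 21, against 0.0980 to 6.63 CPM in the others. Of the 12, 7 were called lower against GR-ENAP1 and 6 against GR-LBD16, where 7.08% and 22% of all genes were, and 0 were called against GR-CHA19. The part of these markers in the gaps was not tested. In bulk seedlings fewer root cells and less RNA per root cell cannot be told apart.

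Dividing cell markers summed to 104 to 112 CPM in GR-WRI3, 101 to 119 CPM in GR-CHA19, 96.6 to 194 CPM in GR-ENAP1 and 125 to 144 CPM in GR-LBD16. Their median log2 difference was -0.15, with 3 of 13 lower at an unadjusted p under 0.05. Xylem markers summed to 49.0 to 78.9 CPM in GR-WRI3, inside or below the 56.9 to 110.1 CPM of the other 12. Seed maturation genes (storage proteins and oleosins) had a median of -1.10 over 17 genes with 1 on the higher side, and summed to 27.1 to 137 CPM in GR-WRI3 against 25.5 to 232 CPM in GR-CHA19, 30.4 to 106 CPM in GR-ENAP1 and 152 to 1075 CPM in GR-LBD16. Their median was -0.08 against GR-CHA19, 0.51 against GR-ENAP1 with 12 of 17 on the higher side, and -1.92 against GR-LBD16, so they did not move one way against GR-ENAP1 and GR-LBD16. Light-induced and photosynthesis genes had a median of -0.21, with 3 of 22 on the higher side, and their summed levels overlapped between all 4 constructs.

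**Figure D4:**
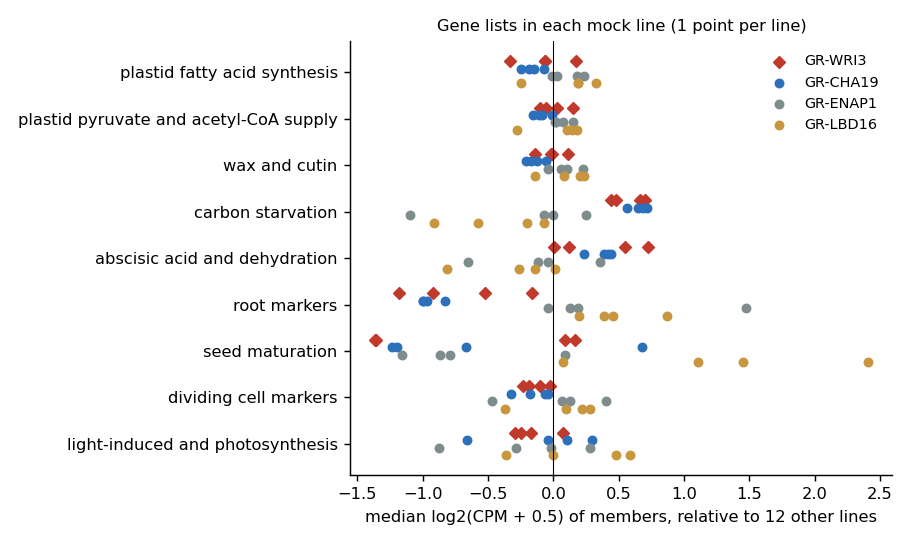
Median over the members of 9 gene lists of log2(CPM + 0.5) in each mock line, relative to the mean of the 12 other lines, with 1 point per line. In the carbon starvation list the GR-WRI3 lines lie at 0.44 to 0.70 beside the GR-CHA19 lines at 0.57 to 0.72, and the GR-ENAP1 and GR-LBD16 lines lie at 0.25 or lower.

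No list member other than WRI3 passed the test against the 12 other lines, and the lowest adjusted p among them was 0.375. Flavonoid genes had a median of -1.61 over 4 genes tested, with FLS1 and the entry enzyme CHS at 0.0842 to 0.257 and 0.192 to 0.642 CPM in the GR-WRI3 lines. In the GR-CHA19 mock libraries FLS1 ranged from 0 to 0.390 CPM and CHS from 0 to 0.244 CPM. Defence and jasmonate genes had a median of 0.20 with 10 of 10 on the higher side. Heat shock genes, HSP90 included, had a median of -0.18, and HSP90.2 stood at 102 to 121 CPM in the GR-WRI3 lines, within the 99.7 to 465 CPM of the others. The medians for hypoxia, phosphate starvation, iron and hypocotyl elongation were 0.05, 0.05, 0.01 and 0.05, and that for seed reserve mobilisation was -0.18. In 12 lists of enzymes whose promoters the study screened, the medians ran from -1.01 (arginine and glycine) to 0.12 (cysteine), with 0 genes called. Against GR-CHA19 alone the medians were 0.03 for flavonoid genes, -0.04 for defence (4 of 10 on the higher side) and -0.11 for heat shock. They were 0.01 for seed reserve mobilisation and 0.03 for arginine and glycine.

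The GR-WRI3 lines also differed among themselves. With 2 plates per line as replicates, 1371 of 17653 genes differed among the 4 lines in mock (7.77%; 3858 or 21.9% at an unadjusted p under 0.05, edgeR F-test). In 550 of them lines 17 and 21 were both above lines 8 and 10, and in 649 they were both below, together 87.5%. This pairing was counted for the called genes alone and not over all genes tested. Line 8 was most often the extreme line, highest in 626 of the 1371 and lowest in 480. Line 10 was highest in 155 and lowest in 156, line 17 in 353 and 376, and line 21 in 237 and 358. On simulated data this F-test made more false calls than its threshold allows, so the count may be too high. The count depended on single lines: it was 164 without line 8, 775 without line 21, 809 without line 17 and 2554 without line 10.

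GER3, a germin-like protein, stood at 179 and 177 CPM in the plates of line 8, 91.0 and 100.3 in line 10, 41.5 and 57.6 in line 17, and 43.0 and 47.1 in line 21 (edgeR F-test, adjusted p = 1.61e-08). XTH17, a cell-wall xyloglucan enzyme, stood at 35.9 and 36.4 CPM in line 8 and 32.8 and 46.3 in line 10, against 3.78 to 6.86 CPM over the 4 plates of lines 17 and 21. PYK10, a root beta-glucosidase, stood at 1165 and 1074 CPM in lines 8 and 10 and at 522 and 487 CPM in lines 17 and 21. These 3 genes and CAB3, a chlorophyll-binding protein of the light-harvesting complex at 256, 126, 82.3 and 56.6 CPM in lines 8, 10, 17 and 21, were picked as examples after their values were seen. Lines 17 and 21 also had the higher WRI3 line sums (187 and 129 CPM) and lines 10 and 8 the lower (44.0 and 119 CPM), although lines 8 and 21 were close in WRI3. Root markers moved with the same pairing, at 1350 and 1258 CPM in lines 8 and 10 and 683 and 646 CPM in lines 17 and 21, and PYK10 alone made up most of those sums. The part of WRI3 level and of root markers in the line differences was not tested.

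On the Dex plates, plates of 1 line could lie far apart for these genes. GER3 stood at 389 and 175 CPM in line 8, and XTH17 at 67.3 and 2.96 CPM in line 21. The chi-square per gene between plates was 42.8 for line 8 in Dex and 2.89 in mock.

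Further differences belonged to a single line or plate and were found by a rule set after the data were seen: a line sum of at least 10 CPM in mock and at least 2 times the highest of the other 15 lines. Line 21 had 1 such gene, line 17 had 1, line 10 had 8 and line 8 had 0. Across the other constructs the count ran from 0 to 93 genes per line, and was 212 in GR-LBD16 line 3.

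In line 21 the gene was XIA (AT1G04600, chr1:1261762-1272588, plus strand), a myosin XI motor that moves along actin. It stood at 152.7 and 167 CPM in the mock plates of line 21 and at 137.7 and 151.6 CPM in its Dex plates. The other 6 GR-WRI3 mock libraries lay at 0 to 1.13 CPM and the other 24 at 0 to 3.25 CPM. The nearby genes AT1G04590 and YUC3 stood at 10.6 and 2.02 CPM in line 21, within the 10.0 to 37.4 and 0.383 to 4.79 CPM of the other lines. The group difference of XIA was 5.56 on the log2 scale (edgeR adjusted p = 0.332), and it was -0.67 without line 21.

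In line 17 the gene was AT5G04810 (chr5:1389979-1393997, plus strand), which encodes a pentatricopeptide repeat protein. It stood at 628 and 582 CPM in mock and 651 and 597 CPM in Dex. All other mock lines lay at 155.8 to 249 CPM, below every plate of line 17. Its group difference was 0.64 on the log2 scale (edgeR adjusted p = 0.375) and 0.15 without line 17. Both single-line genes were found again on the Dex plates, which the rule had not used.

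The 8 genes of line 10 were not found again. In each of the 8 the second mock plate was the high one, at 31.7 to 89.0 CPM against 0.750 to 8.44 CPM in the first. CYP71A12, a cytochrome P450 of camalexin synthesis, stood at 5.25 and 86.1 CPM in the mock plates of line 10 and at 10.8 and 4.57 CPM in its Dex plates. AT3G13610, an oxygenase of coumarin synthesis, stood at 4.13 and 76.0 CPM in the same mock plates, and AT1G26380, a berberine-bridge type oxidase, at 3.94 and 86.1 CPM. None of the 8 met the rule in Dex, and the group difference of CYP71A12 was 1.09 on the log2 scale (95% interval 0.05 to 2.13, edgeR adjusted p = 0.375).

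**Figure D5:**
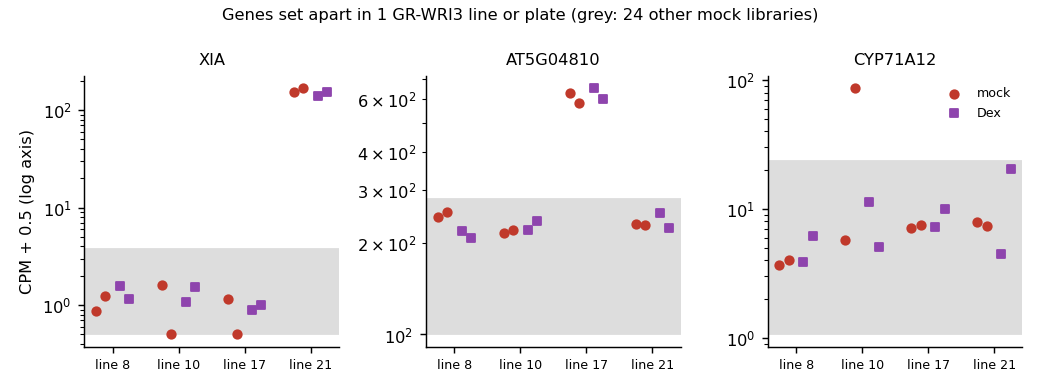
CPM + 0.5 on log axes for XIA, AT5G04810 and CYP71A12 in each GR-WRI3 library, mock (circles) and Dex (squares), with the range of the 24 other mock libraries in grey. XIA is high in the 4 libraries of line 21 and AT5G04810 in the 4 of line 17, whereas CYP71A12 is high in 1 mock plate of line 10, at 86.1 CPM.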

How the data were processed

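mRNA of whole seedlings was sequenced in 2 runs per library without strand marking. As the authors describe, reads were checked with FastQC 0.11.7, trimmed with Trim Galore 0.6.0 and aligned with STAR 2.7.0f to TAIR10. The deposited counts are raw reads per gene, with 1 column per sequencing run (128 columns), and both runs were summed for each of the 64 libraries. Mock totals were 2570143 to 7377308 reads in GR-WRI3 and 2669391 to 7571782 in the other constructs. Of 32833 genes, 32548 were matched to RefSeq by locus tag. CPM are scaled by TMM over the 64 libraries.

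Plates were summed per line and tested with edgeR 4.0.16 (robust quasi-likelihood, TMM, filterByExpr, Benjamini-Hochberg, threshold 0.05) in R 4.3.3. The F-test among lines used plates, so its p-values set the differences among lines against the spread between plates. Limma 3.58.1 and DESeq2 1.42.0 were alternatives. Levels and list summaries used pandas 2.3.3 (Python 3.11.15). The fits were tested on simulated data. The mock comparison with the 12 other lines recovered 14.5% of simulated 1.5-fold changes, 68% of 2-fold and 96% of 4-fold changes. The comparison with GR-CHA19 recovered 12%, 61% and 96%. Small changes could thus go uncalled in either comparison.

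Named genes were WRI3, up to 12 rises and 12 falls that passed every criterion (WRI3 alone did), and the members of each list that passed, or else the 4 with the lowest p-values. The 32 lists and the comparison were chosen with earlier results of these data known. Genes named by no rule are stated as such. Alternatives covered scaling, low-count filters, tools, single sequencing runs, libraries as units with and without a replicate block, and leaving out constructs, lines and libraries.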

Additional observations from a re-analysis of the deposited data

Results flagged for a closer look

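In 97 sets of 4 GR-WRI3 line values, 9 had a line far from the other 3. Of these, 5 were genes picked because a line stood apart, so their distance was fixed by that choice. Without them 4 of 92 sets remain, where chance alone gives about 1 in 20. XIA in line 21 stood at 161 CPM against 0.289 to 0.770 CPM, and AT5G04810 in line 17 at 602 CPM against 218 to 249 CPM. In line 10, CYP71A12 was at 30.8 CPM against 3.37 to 7.07 CPM, AT3G13610 at 26.8 CPM against 3.37 to 5.67 CPM, and AT1G26380 at 29.9 CPM against 4.88 to 6.35 CPM, and all 3 rested on 1 plate. FLS1 in line 10 was at 0.257 CPM against 0.0842 to 0.0962 CPM. That value also rested on 1 plate, at 0.375 and 0 CPM, and no GR-WRI3 mock library held more than 2 FLS1 reads. VSP1, a vegetative storage protein, was at 1.35 CPM in line 17 against 2.19 to 2.34 CPM. NRT2.1, a root nitrate transporter, was at 3.92 CPM in line 8 against 1.51 to 1.92 CPM. The median of the seed reserve mobilisation list was 0.007 on the log2 scale in line 8 against -0.15 to -0.13 in the others.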

How the results depend on the processing

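WRI3 was called under each alternative run, with log2 differences of 6.35 to 6.92 when single lines or libraries were left out and 6.49 to 6.84 otherwise. The number of genes called in mock was 1 under the other scalings, filters, tools, fold minimum and single runs, and 1 in each of the 48 fits without a line or library. It was 2 with 32 libraries as separate units and 2 with the replicate block, where SCO2 joined WRI3 (edgeR adjusted p = 0.0372 and 0.0442), 23 with a mean for each construct, and 5737 without the GR-CHA19 lines. SCO2 passed in the last 2 as well (0.0413 and 0.00665), and in no other alternative run (0.059 to 0.807). The replicate number did not pair lines in general: the differences between plates had a median correlation of 0.00689 over 120 pairs of lines. Single pairs ran from -0.553 to 0.725, and 27 pairs were over 0.1. Pairs within a construct were not examined separately. The same replicate block gave 1290 in place of 1371 genes differing among the GR-WRI3 lines. That count ran from 164 to 2554 without single lines. The count in Dex ran from 1 to 5 without single lines, and was 8 with DESeq2 and 1 with a mean for each construct. The cause was not tested.

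Differences close to 0 changed sign. BCCP2 was -0.082 with library size alone, -0.016 with separate libraries, -0.013 with the replicate block, -0.16 without GR-CHA19, -0.057 on the second run alone and -0.0594 without GR-ENAP1 line 1 and GR-LBD16 line 3. WRI1 was 0.023 with limma voom, 0.0093 without GR-CHA19, 0.057 without GR-ENAP1 and 0.13 on the first run alone. WRI2 was -0.028 with library size alone, -0.016 without GR-ENAP1 and -0.027 without those 2 lines. ACP3 was 0.010 on the second run alone and CHA19 0.021 without GR-CHA19. Without single lines or libraries, BCCP2 ran from -0.16 to 0.18, WRI1 from -0.082 to 0.083, WRI2 from -0.013 to 0.073, TLP8 from -0.41 to 0.24 and XIA from -0.67 to 5.97. Of 73 named genes refitted, 47 that did not pass against the 12 other lines passed without the GR-CHA19 lines. Over all genes 5737 of 19131 (30%) passed there. Named genes were largely picked by low p-values in a comparison that shares these libraries, so their count says nothing about them as a group.

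With no plate of a line without a GR fusion and no batch label beyond the sequencing runs, a construct and its handling cannot be told apart. Within a single line, the insertion and anything else particular to that line cannot be told apart either. The smaller group held 4 lines, and genes at a few reads per library such as RHD6, CHS and FLS1 were measured coarsely.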
